A study of Mus musculus with 88 samples.

Results

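Retinoic acid, a form of vitamin A, acts through nuclear receptors that bind DNA together with retinoid X receptors. The 9 genes described here cover its pathway. They comprised the receptors Rara, Rarb, and Rarg, the cytoplasmic binding proteins Crabp1 and Crabp2, the synthesising enzyme Aldh1a2, the degrading enzymes Cyp26a1 and Cyp26b1, and the germ-cell gene Stra8. They were taken by name from 53697 genes listed for the mesoderm series, 54393 for the endoderm series, 26007 for the bulk embryoid bodies, and 15830 for the single cells, and all 9 were listed in each table. In the early embryo, Aldh1a2 makes retinoic acid and CYP26 enzymes remove it, so that the signal is kept to particular tissues. Cyp26a1 and Rarb are classic direct targets of the receptors, and Stra8 is induced by retinoic acid in germ cells before meiosis.

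The study followed mouse embryonic stem cells that lacked a subunit of Polycomb repressive complex PRC2, which methylates histone H3 at silenced developmental genes. EED belongs to the core of the complex, and MTF2 and JARID2 to its alternative forms PRC2.1 and PRC2.2. All cells were kept in serum and LIF before differentiation. Embryoid bodies (EBs) were aggregates from which LIF was withdrawn. The 48 directed libraries held cells of 3 genotypes (WT, Mtf2 null, Jarid2 null), all labelled strain E14, undifferentiated (UD) and after 5, 24, and 48 h of directed differentiation in monolayer, with 2 libraries per group. Mesoderm induction used Activin A, BMP4, CHIR99021, and FGF2 followed by A-83-01 with BMP4, and endoderm induction used Activin A, CHIR99021, and FGF2 followed by Activin A with DM3189. The 24 bulk EB samples paired lines labelled Mtf2 null with the WT line pclwt, Jarid2 null with JM8, and Eed null with J1. They were from days 0, 2, 4, and 7, with 1 sample per line and day. Column names mark day 0 as monolayer cells and the later days as EBs. Most samples held repeat columns, some with different library codes, and these were averaged. The 16 single-cell EB libraries held WT cells and cells null for Mtf2 (called Mtf2_GT in the cell table), Jarid2, or Eed, all labelled strain E14, on days 0, 4, 7, and 10, with 1 library each. The authors describe pclwt, JM8, and J1 as background-matched to their mutants, and no directed or single-cell WT library is labelled as one of them. The labels give no more than 1 line per mutant in a series, so the mutation and other differences between lines cannot be told apart. The directed duplicates were called technical by the authors, so their p-values measure the spread between libraries and not between cultures.

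Directed libraries held 9111880 to 16898264 estimated counts, EB columns 3005707 to 22944105 reads, and single-cell libraries a median of 4997 to 10603 UMIs per cell in 202 to 347 cells, 4949 cells in all. The same 384 well barcodes recurred across the single-cell libraries, as the plate design gives. Mtf2 fell from 375 to 509 CPM (counts scaled to a common library total) in the 4 WT UD libraries to 31.1 to 34.8 CPM in Mtf2 null cells. Jarid2 mRNA fell less in Jarid2 null UD cells (297 to 329 CPM against 352 to 473 CPM) and was not called as changed. In single cells, Mtf2, Jarid2, and Eed were at 57.6, 143, and 5.67 UMI CPM in their own mutants against 536, 379, and 271 UMI CPM in WT. In bulk EBs Mtf2 was lower in the line labelled Mtf2 null than in pclwt on all 4 days (315, 226, 230, and 164 against 414, 439, 325, and 386 CPM, log2 -0.77, adjusted p = 0.0502, limma). Jarid2 and Eed did not follow the labels. Jarid2 was at 593, 661, 250, and 222 CPM in the line labelled Jarid2 null and at 503, 637, 277, and 329 CPM in JM8. Eed was at 112, 204, 106, and 58.3 CPM over days 0 to 7 in the library labelled Eed null and at 107, 248, 77.6, and 52.4 CPM in J1, and of the day 0 samples Mtf2 was lowest in the one labelled Jarid2 null, at 127 CPM. EB samples are therefore named below by their labels only. The endoderm label was checked against its markers: summed Sox17, Foxa2, Cxcr4, Gsc, and Cer1 were at 0.87 to 0.94 CPM in WT endoderm libraries at 48 h, with Cer1 at 0, and at 48.8 to 57.3 CPM in Mtf2 null libraries. In UD cells of that series the WT sum was 1.5 to 2.08 CPM, so these markers were no higher at 48 h in WT and the check went against the label. Summed mesoderm markers (Hand1, Hand2, Tbx20, Isl1, Kdr, and Tnnt2) were at 11.7 to 15.2 CPM in WT mesoderm libraries at 48 h, up from 2.86 to 2.98 CPM in UD cells.

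Retinoic acid receptors bind repeats of a hexamer, and promoters of the members were searched for such repeats to show which genes carry them. RefSeq windows of GRCm38.p6 from 250 bases before to 50 bases after a start site were found for 8 members (12 windows), with Crabp2 not matched. The hexamers searched, on both strands, were AGGTCA with its variant AGTTCA, as well as GGTTCA together with GGGTCA, alone or as a direct repeat with 2 or 5 bases between. A repeat with 5 bases between was found in 2 members, Rarb and Cyp26a1, against 32 of 32851 windows in all (0.0974%). In the windows below the repeat is in capitals. It starts 53 bases before the start site in Rarb, at chr14:16575427-16575726 on the minus strand and inside the annotated gene, and 32 bases before it in Cyp26a1, at chr19:37697558-37697857 on the plus strand, where it reads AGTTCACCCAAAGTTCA on the opposite strand.
Rarb: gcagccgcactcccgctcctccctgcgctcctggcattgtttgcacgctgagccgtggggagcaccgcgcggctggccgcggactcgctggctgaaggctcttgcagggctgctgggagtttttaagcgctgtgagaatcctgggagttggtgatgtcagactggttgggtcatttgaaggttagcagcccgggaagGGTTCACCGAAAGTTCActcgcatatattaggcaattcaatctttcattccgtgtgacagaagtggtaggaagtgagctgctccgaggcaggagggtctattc
Cyp26a1: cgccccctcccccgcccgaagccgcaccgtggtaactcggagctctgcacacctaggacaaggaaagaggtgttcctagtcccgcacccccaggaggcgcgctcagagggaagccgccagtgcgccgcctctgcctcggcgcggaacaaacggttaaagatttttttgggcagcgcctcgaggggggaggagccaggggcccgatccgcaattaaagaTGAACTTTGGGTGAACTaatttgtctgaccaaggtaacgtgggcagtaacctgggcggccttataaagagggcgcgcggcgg
No member window held the repeat with 2 bases between, which was in 88 windows in all (0.268%). At least 1 hexamer was in 43.7% of all windows, so the lone match in a Rarg window is common. The Stra8 window held 2 hexamers, and Rara windows held 4 and 1. How often windows hold more than 1 hexamer was not computed. A match describes letters and not a bound site.

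The 9 genes differed widely in level in WT UD cells. Per kilobase of exon, Rarg (mouse chr15:102234938-102257517, GRCm38) stood highest at 31.1 ± 4.35 CPM per kb (SD, n = 4), followed by Crabp1 (chr9:54764748-54773110) at 11.9 ± 1.57 and Rara (chr11:98927818-98974942) at 11.4 ± 2.66. Stra8 (chr6:34920163-34939344) was at 4.01 ± 0.519, Crabp2 (chr3:87948666-87953376) at 0.824 ± 0.172, Aldh1a2 (chr9:71215789-71296243) at 0.548 ± 0.123, and Cyp26a1 (chr19:37697798-37701536) at 0.162 ± 0.0977 CPM per kb. Rarb (chr14:16430839-16819156) at 0.0477 ± 0.0249 and Cyp26b1 (chr6:84571414-84593908) at 0.0396 ± 0.0464 CPM per kb were close to no counts. Crabp1 and Rara lay within 1 SD of each other, as did Rarb and Cyp26b1, and the ranges of Crabp2 and Aldh1a2 overlapped. Rarb did not exceed 0.726 CPM and Cyp26b1 0.689 CPM in any directed library, and neither passed the filter on low counts, so 7 of 9 members were tested there. A gene was called when edgeR's quasi-likelihood test gave a Benjamini-Hochberg adjusted p under 0.001 over all genes and the change exceeded 2-fold. For directed groups said to lie apart, the share of all genes that did so was computed only where it is given.

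Crabp1, which binds retinoic acid in the cytoplasm, was the member called in UD cells against WT. WT UD libraries held 10.3 and 10.2 CPM in the mesoderm series and 9.95 and 7.68 CPM in the endoderm series. Mtf2 null UD libraries held 2.05, 2.38, 1.59, and 1.54 CPM, all below every WT library. Jarid2 null UD libraries held 8.87, 5.90, 7.82, and 6.23 CPM and overlapped the WT range. Across both series, Crabp1 fell by 2.33 on the log2 scale in Mtf2 null cells (SE 0.176, adjusted p = 3.80e-08, edgeR), and it was the only member of 7 called among UD cells against WT, where 14% of all genes were called and 6.15% were called lower. Against Jarid2 null cells it fell by 1.91 (SE 0.177, adjusted p = 3.77e-07), where 13.3% of all genes were called.

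By 48 h the Crabp1 values of Mtf2 null and WT cells overlapped in both time courses. At 5 h of mesoderm induction it was at 5.78 and 7.31 CPM in WT and 1.78 and 1.56 CPM in Mtf2 null cells (3.9-fold lower, adjusted p = 2.36e-04), and at 24 h at 4.43 and 4.74 against 1.9 and 0.92 CPM, which was not called (log2 -1.72, adjusted p = 0.00196). The call at 5 h was lost when any of its 4 libraries was left out (adjusted p 0.0010 to 0.0083). At 48 h Mtf2 null cells held 8.36 and 5.78 CPM and WT cells 6.01 and 6.36 CPM, so that the groups overlapped. In the endoderm series the 48 h values were 3.52 and 2.72 CPM in Mtf2 null cells and 5.11 and 2.26 CPM in WT, again overlapping. The change of the Mtf2 null effect between UD cells and 48 h was +2.40 on the log2 scale in mesoderm (adjusted p = 0.0011) and +2.23 in endoderm (adjusted p = 0.0053), neither past the threshold. Within Mtf2 null cells Crabp1 rose from UD to 48 h of mesoderm by 1.67 (SE 0.344, adjusted p = 9.96e-04), a call lost without any of its 4 libraries, with the replicate number as a block (adjusted p = 0.0013), with RLE scaling (adjusted p = 0.0011), and when only the groups compared were fitted (adjusted p = 0.0021).

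**Figure D1:**
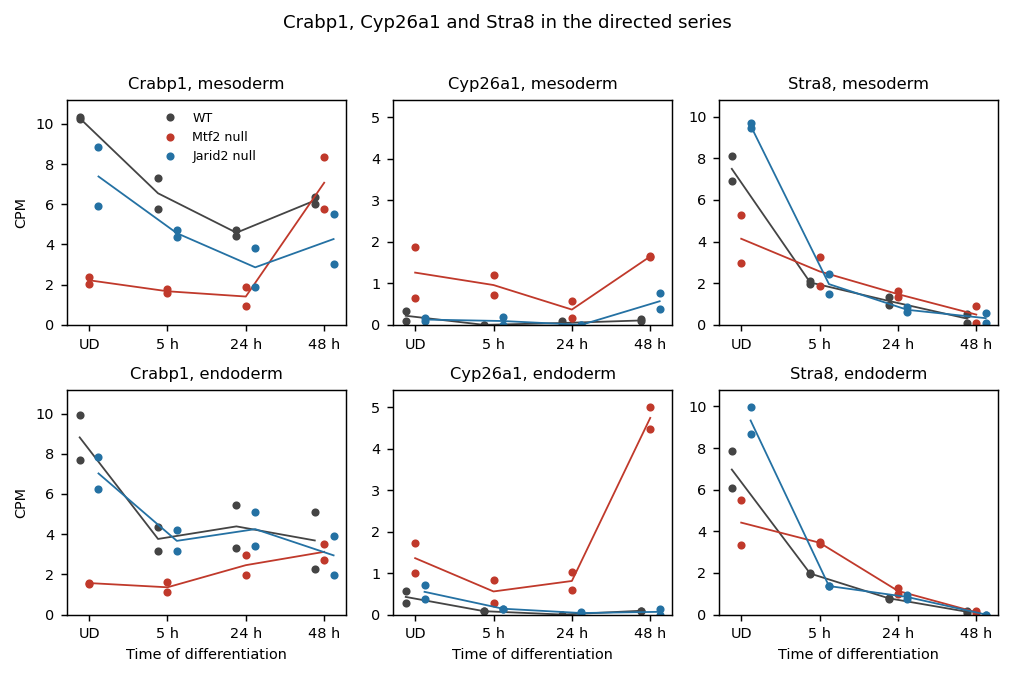
Crabp1, Cyp26a1, and Stra8 in the directed series, in CPM on linear axes that start at 0, by time (UD, 5, 24, and 48 h) in mesoderm and endoderm. Points are libraries (2 per group) and lines join group means. Mtf2 null libraries of Crabp1 lie at 1.54 to 2.38 CPM in UD cells below all WT libraries, and Mtf2 null libraries of Cyp26a1 reach 4.47 to 5.01 CPM at 48 h of endoderm.

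Cyp26a1, which breaks retinoic acid down, was higher in Mtf2 null than in WT libraries at every time in both series. In endoderm at 48 h it was at 5.01 and 4.47 CPM in Mtf2 null cells, 0.0866 and 0.0942 CPM in WT, and 0 and 0.131 CPM in Jarid2 null cells. The column names of the Jarid2 null libraries at 48 h of endoderm carry another hour than their labels, and the labels were followed for every such value. The Mtf2 null difference from WT was 131 counts against 2 over the paired libraries, a ratio of 52.4 with a 95% counting interval of 14.2 to 437. It was called against WT (adjusted p = 2.40e-06) and against Jarid2 null cells (adjusted p = 7.71e-07), where 10.5% and 9.84% of all genes were called, and both calls held in all 10 alternatives run for each. At 24 h of endoderm the Mtf2 null libraries held 1.02 and 0.603 CPM and both WT libraries 0 (19 counts against 0, at least 7.73-fold higher against a floor of 3 counts over the group, adjusted p = 5.32e-04), a call lost without any of its 4 libraries and under DESeq2. In mesoderm at 48 h, Cyp26a1 was at 1.64 and 1.66 CPM in Mtf2 null and 0.131 and 0.0815 CPM in WT cells, 39 counts against 3, a ratio of 15.2 (4.82 to 76.7) that missed the threshold (adjusted p = 0.0027). UD cells differed in the same direction without a call, with ratios of 5.38 (2.02 to 18.0) and 3.20 (1.49 to 7.61) in the 2 series. Both Mtf2 null libraries lay above both WT libraries in all 8 comparisons of time and series, which held for 7.33% of all genes tested in both series. Intervals on summed counts cover counting error only.

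Other genes moved with Cyp26a1 in Mtf2 null libraries. Summed extraembryonic endoderm markers (Sox7, Amn, Afp, Ttr, Lama1, and Dab2) were at 1608 to 1840 CPM in Mtf2 null and 35.6 to 44.4 CPM in WT libraries at 48 h of endoderm, with Ttr and Afp at 0 in both WT libraries, and at 1250 to 1251 against 71.4 to 81.2 CPM at 48 h of mesoderm. All 5 tested markers of this list were called higher at 48 h in both series. Their part in the Cyp26a1 result was not tested. In these bulk libraries a larger share of a cell type and more RNA per cell cannot be told apart.

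Stra8 fell during differentiation in every genotype. In WT mesoderm it was at 6.90 and 8.09 CPM in UD cells, 1.99 and 2.09 CPM at 5 h, 1.36 and 0.948 CPM at 24 h, and 0.523 and 0.0815 CPM at 48 h, a fall by 4.50 on the log2 scale. In WT endoderm it went from 6.06 and 7.87 CPM to 0.173 and 0.0942 CPM (fell by 5.59), and in Jarid2 null endoderm from 8.66 and 9.99 CPM to 0 in both libraries. All 6 falls were called (3 genotypes in each series), where 8.64%, 6.28%, and 8.5% of all genes were called in mesoderm and 8.15%, 8.93%, and 8.5% in endoderm (WT, Mtf2 null, Jarid2 null). The call in Mtf2 null mesoderm was lost without either UD library or without the second 48 h library (log2 -2.16, adjusted p = 0.016). Mtf2 null UD libraries held 2.99, 5.29, 3.35, and 5.49 CPM, below all 4 WT libraries (6.06 to 8.09 CPM) and all 4 Jarid2 null libraries (8.66 to 9.99 CPM). The difference from Jarid2 null was called (log2 -1.11, SE 0.188, adjusted p = 1.52e-04) but fell under 2-fold without the first mesoderm Mtf2 null library (log2 -0.96), and the difference from WT was not called (log2 -0.75, adjusted p = 0.0043). At 5 h of endoderm the order was the other way, with 3.40 and 3.5 CPM in Mtf2 null against 1.93 and 2.01 CPM in WT libraries, also not called.

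Rara and Rarg were the abundant receptors. Rara in mesoderm went from 62.1 and 40.3 CPM in WT UD cells to 22.2 and 28.3 CPM at 48 h (log2 -1.02, SE 0.169, adjusted p = 8.27e-05), and in Jarid2 null cells from 53.1 and 42.7 to 18.5 and 21.6 CPM (log2 -1.26, adjusted p = 1.04e-05). The Jarid2 null call held in all alternatives, and the WT call was lost without the first UD library (log2 -0.67) or the first 48 h library (log2 -0.85). Mtf2 null UD libraries held 31.6 to 35.7 CPM of Rara, below all WT (39.7 to 62.1 CPM) and all Jarid2 null libraries (42.7 to 53.1 CPM), a difference under 2-fold (log2 -0.53, adjusted p = 0.0026).

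Rarg was at 133 ± 18.5, 148 ± 4.52, and 123 ± 8.96 CPM in WT, Mtf2 null, and Jarid2 null UD cells (SD, n = 4), with overlapping ranges and no call. In endoderm at 48 h WT libraries held 105 and 94.8 CPM, Jarid2 null libraries 93.2 and 106 CPM, and Mtf2 null libraries 48.5 and 62.7 CPM, below all the others. The differences from WT (ratio 0.559 of summed counts, under 2-fold) and from Jarid2 null cells were not called. Within Mtf2 null endoderm Rarg fell from 146 and 154 CPM in UD cells by 1.43 on the log2 scale (adjusted p = 1.47e-08). The Mtf2 null effect on Rarg changed from UD to 48 h by -1.03 (SE 0.174, adjusted p = 2.03e-04), the only such interaction called among members, where 5.24% of all genes were called (2.71% for the same effect in mesoderm, and 0.0545% and 0.514% for Jarid2 null in mesoderm and endoderm). It was lost without any 1 of 4 of its libraries (the first Mtf2 null and the first WT library at 48 h, where the change came under 2-fold at log2 -0.86 and -0.97, and the second UD library of each), and when only the groups compared were fitted (adjusted p = 0.0037). In mesoderm at 48 h the 3 genotypes overlapped, at 84.3 and 88.5, 87.1 and 85.6, and 80.5 and 103 CPM in WT, Mtf2 null, and Jarid2 null libraries.

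Crabp2, which carries retinoic acid to its receptors, rose in mesoderm from 1.18 and 1.19 CPM in WT UD cells to 5.23 and 3.59 CPM at 48 h (log2 1.89) and in Jarid2 null cells from 1.33 and 0.954 to 5.22 and 4.71 CPM (log2 2.11), both called. The rise in Mtf2 null cells, from 0.747 and 1.14 to 2.45 and 2.46 CPM, was not called (log2 1.38, adjusted p = 0.0054), and at 48 h both Mtf2 null libraries lay below all WT and Jarid2 null libraries. Neither difference at 48 h was called, nor was the change of the Mtf2 null effect from UD to 48 h. The WT call was lost under DESeq2 (adjusted p = 0.0013) and without any 1 of 3 libraries, and the Jarid2 null call without its second UD library (adjusted p = 0.001). In endoderm, Crabp2 counts summed over the libraries of a group went from 21 in WT UD cells to 96 at 48 h. They went from 31 to 60 in Mtf2 null and from 34 to 77 in Jarid2 null cells, and none of these rises was called. Aldh1a2 stayed between 0 and 3.47 CPM in all directed libraries. At 48 h of mesoderm it was at 0 and 0.245 CPM in WT, 0.0949 and 0.152 CPM in Jarid2 null, and 1.09 and 0.555 CPM in Mtf2 null cells, and only the fall within Jarid2 null mesoderm was called (log2 -3.36, adjusted p = 6.68e-04, lost under DESeq2 and without any of 4 libraries).

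**Figure D2:**
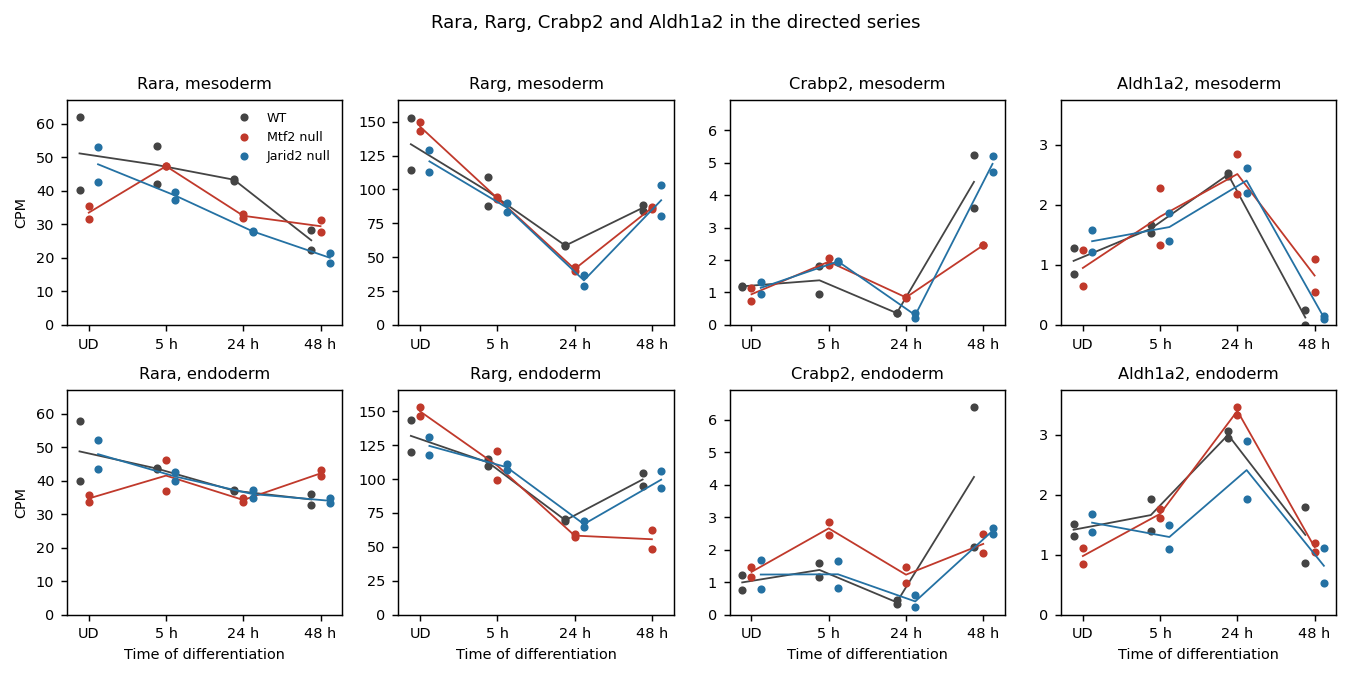
Rara, Rarg, Crabp2, and Aldh1a2 in the directed series, in CPM on linear axes that start at 0, by time in mesoderm and endoderm. Points are libraries (2 per group) and lines join group means. At 48 h of endoderm the Mtf2 null libraries of Rarg lie at 48.5 and 62.7 CPM below all other libraries of that time, a difference that was not called.

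Jarid2 null cells gave no call among members in the directed series. Over 8 comparisons with WT and 7 members tested in each (56 tests), edgeR called 0 and DESeq2 called 0, with 5 at an unadjusted p under 0.05, where 0.37%, 0%, 1.97%, and 0.169% of all genes were called in mesoderm (UD, 5, 24, and 48 h) and 0.742%, 0.0363%, 0.0312%, and 0.125% in endoderm. In UD cells of both series together edgeR and DESeq2 again called 0 of 7 members, with 1 at an unadjusted p under 0.05 and 1.07% of all genes called. The nearest was Rarg at 24 h of mesoderm, at 28.7 and 36.9 CPM in Jarid2 null against 57.9 and 59.1 CPM in WT libraries, a fall by 0.84 on the log2 scale that stayed under 2-fold (adjusted p = 6.60e-04). The change from UD to 48 h was also compared between the mesoderm and endoderm series within each genotype. Of 21 tests on members, edgeR called 0 and DESeq2 called 0, with 8 at an unadjusted p under 0.05, where 1.35%, 0.617%, and 1.97% of all genes were called in WT, Mtf2 null, and Jarid2 null cells.

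For Mtf2 null cells the same 8 comparisons with WT gave 5 calls in 56 tests, 3 of Crabp1 and 2 of Cyp26a1. Within a single series, the UD call of Crabp1 was lost without the first Mtf2 null library in mesoderm (adjusted p = 0.0014) and without either Mtf2 null library in endoderm (adjusted p = 0.0011). All genes were called at 11.1%, 7.56%, 5.72%, and 6.82% in mesoderm and at 11%, 7.61%, 6.58%, and 10.5% in endoderm. Between the mutants, 3 members' tests were called over 8 comparisons, Crabp1 in UD cells of each series and Cyp26a1 at 48 h of endoderm, where 10.1%, 8.06%, 8.97%, and 6.63% of all genes were called in mesoderm and 10.7%, 8.01%, 6.58%, and 9.84% in endoderm.

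The other genes of the pathway were read from 3 fixed lists. Among Mtf2 null UD cells, 3 of 7 tested genes known to be induced by retinoic acid were called higher and 2 lower, 3 of 11 other receptors and cofactors were called higher, and 1 of 9 other synthesis, transport, and breakdown genes was called higher, where 14% of all genes were called. Of the induced list, Cdx1 rose by 2.43 on the log2 scale and Meis1 by 2.23. Tgm2, a transglutaminase, fell by 2.67. Among receptors and cofactors, Nrip1 rose by 1.91, Nr2c1 by 1.83, and Ncoa3 by 1.52. Stra6, the retinol uptake receptor, rose by 2.44. At 48 h of endoderm, where Cyp26a1 was highest, the synthesis and transport genes Stra6 (log2 4.62, adjusted p = 8.13e-06), Dhrs3 (log2 3.81), which reduces retinaldehyde back to retinol, and Rdh10 (log2 1.23), which oxidises retinol, were called higher, 3 of 9 tested, where 10.5% of all genes were called. Of the induced list, Zfp703 rose by 2.25. Medians over the induced list were 1.19 in UD cells and 2.25 at 48 h of endoderm, against -0.04 and -0.02 over all genes tested.

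Rarg, Rara, and Crabp1 exceeded a group mean of 10 CPM in the directed series, and the genes whose profiles were most like theirs were sought over 48 libraries centred within each series. For Rara these were Stip1 (Pearson r 0.83), Acot7 (0.83), and Rrp9 (0.82), for Rarg Nqo2 (0.88), Bckdha (0.87), and Myrf (0.87), and for Crabp1 Col5a3 (0.85), Pla2g16 (0.84), and Dnah6 (0.82), out of 18017 genes. The libraries share time courses and genotypes, so these values describe likeness only.

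In bulk EBs, Rara was lower in the labelled mutant than in its WT line in all 12 pairs of line and day, which held for 3.39% of 15842 genes tested. It was at 77.7, 44.4, 32.1, and 36.5 CPM on days 0, 2, 4, and 7 in the line labelled Mtf2 null and at 108, 98.4, 73.4, and 62 CPM in pclwt. In the line labelled Jarid2 null it was at 51.4, 65, 40.1, and 52.3 CPM against 98.0, 105, 49.5, and 72.3 CPM in JM8. In the line labelled Eed null it was at 27.7, 25.2, 37.5, and 46.8 CPM against 67.4, 73.1, 54.8, and 78.4 CPM in J1. With day as a block, limma gave falls by 0.89 (SE 0.176, adjusted p = 0.029), 0.59 (SE 0.137, adjusted p = 0.034), and 1.02 (SE 0.187, adjusted p = 0.031) on the log2 scale, where 7.51%, 13.7%, and 8.67% of all genes were called at an adjusted p under 0.05. All EB calls on members, here and below, were lost when the filter on low values or the day block was left out.

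Cyp26a1 peaked on day 4 or 7 in EBs, and its height differed between lines. On days 0, 2, 4, and 7 it was at 3.81, 0.875, 111, and 55.4 CPM in the line labelled Jarid2 null and at 0.304, 0.34, 8.30, and 15.2 CPM in JM8, a rise by 2.23 on the log2 scale (SE 0.456, adjusted p = 0.025, limma). The order was the other way on day 4 between the line labelled Eed null, at 13.8 CPM, and J1, at 93.9 CPM, and close on day 7, at 5.82 and 5.37 CPM. Summed primitive streak markers (T, Mixl1, Eomes, and Fgf8) on day 4 were at 802 CPM in the line labelled Jarid2 null and 128 CPM in JM8, and at 103 CPM in the line labelled Eed null and 468 CPM in J1. Their part in the Cyp26a1 values was not tested. In the line labelled Mtf2 null Cyp26a1 was at 0.0972, 5.62, 18.6, and 12.8 CPM against 0.333, 0.861, 3.77, and 11.5 CPM in pclwt, higher on 3 of 4 days and not called (adjusted p = 0.26).

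The line labelled Eed null stood above J1 on all 4 days for 6 of 9 members, Rarb, Cyp26b1, Aldh1a2, Stra8, Crabp1, and Crabp2, where 17.5% of all genes did. Crabp2 was at 10.2, 9.82, 24.2, and 46.9 CPM against 4.46, 3.46, 6.31, and 8.38 CPM (log2 1.71, SE 0.274, adjusted p = 0.023, limma). Stra8 was at 19.4, 4.54, 3.35, and 4.75 CPM against 7.31, 1.09, 0.0884, and 0.496 CPM (log2 2.16, SE 0.366, adjusted p = 0.026, and 0.053 with edgeR on recovered reads). Cyp26b1 reached 43.3 CPM on day 7 against 3.84 CPM in J1, Rarb 13.6 against 11.3 CPM, and Crabp1 51.6 against 12.4 CPM, none of them called over the 4 days. Summed germ-cell markers (Ddx4, Dazl, Dppa3, Prdm1, Sycp3, and Tex15) moved the same way, at 316, 307, 350, and 218 CPM against 218, 168, 55.7, and 39.9 CPM. Their part in the Stra8 values was not tested. Of the 15 genes of the induced list, 13 were tested, and 3, 4, and 3 were called higher and 0 lower in the lines labelled Mtf2 null, Jarid2 null, and Eed null, where 7.51%, 13.7%, and 8.67% of all genes were called. Examples were Tgm2 (log2 2.51) in the line labelled Mtf2 null, Tgm2 (log2 2.00) in the line labelled Jarid2 null, and Hoxa3 (log2 2.62) in the line labelled Eed null.

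On day 0 the bulk samples were undifferentiated cells, marked as monolayer in their column names. Crabp1 was then at 6.12 CPM in the sample labelled Mtf2 null against 18.6 CPM in pclwt. Stra8 was at 3.04 against 13.5 CPM, and both genes differed in the direction also seen in the directed UD cells. The Mtf2 level of that sample was 315 CPM against 414 CPM in pclwt. With 1 sample a day these are single values.

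**Figure D3:**
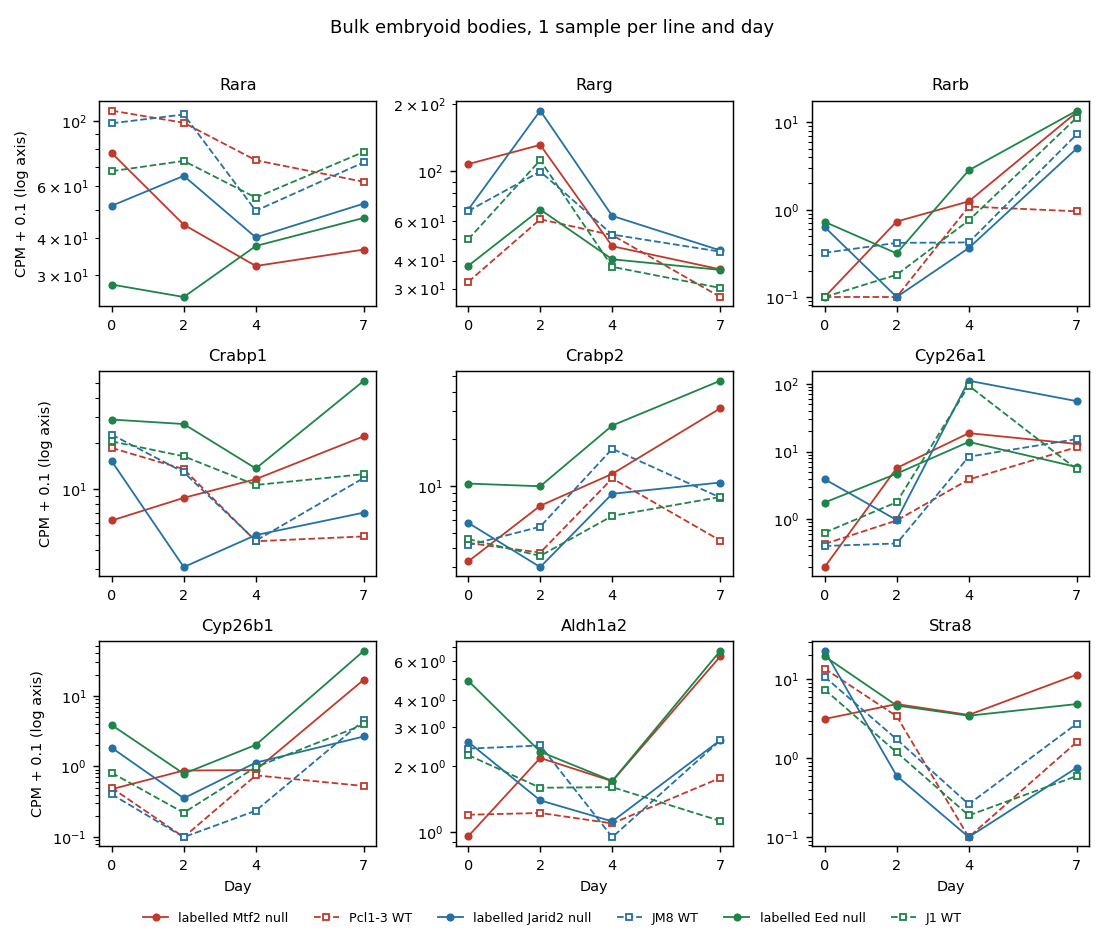
All 9 members in bulk EBs, as CPM plus 0.1 on a log axis against day (0, 2, 4, and 7), 1 sample per point. Day 0 samples are marked as monolayer, and repeat columns of a sample are averaged. Filled points on solid lines are the labelled mutants and open squares on dashed lines their WT lines. Rara lies below its WT line in all 12 pairs, and Cyp26a1 reaches 111 CPM on day 4 in the line labelled Jarid2 null and 93.9 CPM in J1.

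Single cells gave the same genes in another preparation of EBs, with 1 library per genotype and day and hence no test. Values are UMI CPM, the CPM of UMIs summed over cells, with exact 95% Poisson intervals, which cover counting error only, and a member is called higher or lower here only where intervals do not overlap. The 2 binding proteins stood above WT in Eed null EBs on all days. Crabp1 was at 106, 109, 125, and 349 UMI CPM on days 0, 4, 7, and 10 in Eed null and at 9.03, 11.2, 26.4, and 16.5 UMI CPM in WT cells, ratios of 11.7, 9.77, 4.73, and 21.2. Crabp2 was at 98.9, 85.1, 262, and 486 UMI CPM against 10.7, 46.7, 142, and 37.9 UMI CPM, ratios of 9.24, 1.82, 1.84, and 12.8. Stra8 followed, at 8.54, 23.0, 28, and 38.8 UMI CPM in Eed null cells against 0.669, 1.87, 2.35, and 1.43 UMI CPM in WT cells, the latter from 2 to 5 UMIs a library. Intervals were apart on all 4 days for Stra8, Crabp1, and Crabp2, and the share of all genes under that rule was not computed. By UMI CPM alone, Eed null cells had the larger value on all 4 days for 5 of 9 members, these 3 with Cyp26b1 and Aldh1a2, where 19.4% of genes with at least 20 UMIs did. Intervals of Cyp26b1 were apart on 2 days and those of Aldh1a2 on 0 days.

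In Mtf2 null and Jarid2 null EBs both binding proteins stood above WT on day 10. Crabp1 was then at 59.3 (49.4 to 70.5) UMI CPM in Mtf2 null and 167 (148 to 188) UMI CPM in Jarid2 null cells, against 16.5 (10.4 to 24.7) UMI CPM in WT cells. Jarid2 null cells also had more Crabp1 than WT on day 0, at 22.1 (17.3 to 27.9) against 9.03 (5.95 to 13.1) UMI CPM. Crabp2 on day 10 was at 196, 188, and 37.9 UMI CPM in Mtf2 null, Jarid2 null, and WT cells, while on days 0, 4, and 7 Jarid2 null cells lay lower than WT (4.36 against 10.7, 8.72 against 46.7, and 89.2 against 142 UMI CPM). Mtf2 null cells lay lower than WT on day 7, at 73.5 against 142 UMI CPM. Rarb was near 0 in all libraries on days 0 and 4 and reached 24.8 (17.9 to 33.4) UMI CPM in Jarid2 null and 47.0 (36.1 to 60.2) UMI CPM in Eed null cells on day 10, against 3.58 (1.16 to 8.35) UMI CPM in WT cells. Cyp26b1 was at 8.07 UMI CPM in Eed null cells on day 7 (19 UMIs, against 2 in WT) and at 64.9 (52 to 80.1) UMI CPM on day 10 (87 UMIs, against 4 in WT). Aldh1a2 reached 20.7 UMI CPM in Jarid2 null cells on day 10, with 36 UMIs in 12 cells, 8 of them in 1 cell, and 2 UMIs in WT cells.

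Day 0 Crabp1 was 12.3 (9.10 to 16.4) UMI CPM in Mtf2 null and 9.03 (5.95 to 13.1) UMI CPM in WT cells, with overlapping intervals. In directed UD libraries the means were 1.89 ± 0.401 and 9.55 ± 1.26 CPM (SD, n = 4). The 2 data sets are separate cultures counted in different ways, and the difference between them was not tested. Day 0 Rara was lower in each mutant than in WT (63.9 UMI CPM), at 0.66 times its level without Mtf2, 0.731 times without Jarid2, and 0.442 times without Eed. This order did not last. On day 4 Rara was higher without Jarid2 than in WT, at 1.62 times its level. Intervals overlapped in every other comparison of a mutant with WT on days 4, 7, and 10. Ratios in those comparisons went both ways, from 0.555 (Eed null, day 4) to 1.56 (Eed null, day 10).

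Cyp26a1 rose sharply on day 7 in WT and Mtf2 null EBs and less in the others. It was at 221 (201 to 242) and 205 (187 to 224) UMI CPM in WT and Mtf2 null cells, at 53.5 (43.6 to 65) UMI CPM without Jarid2, and at 41.2 (33.4 to 50.2) UMI CPM without Eed, 0.242 and 0.186 times WT. On day 10 it was at 63.7 UMI CPM in WT, 106 without Mtf2, 59.9 without Jarid2, and 5.22 without Eed, and without the top cell, which held 29 of 89 UMIs, the WT value was 43.6 UMI CPM. Shares of cells with a UMI after thinning to 2500 UMIs a cell, which left out 492 shallower cells, were on day 7 at 21.1% in WT, 25.2% without Mtf2, 5.81% without Jarid2, and 5.72% without Eed (34.2%, 35.2%, 8.28%, and 9.09% before thinning). The shares put Mtf2 null above WT cells, unlike the UMI CPM, so no order is read within either pair.

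**Figure D4:**
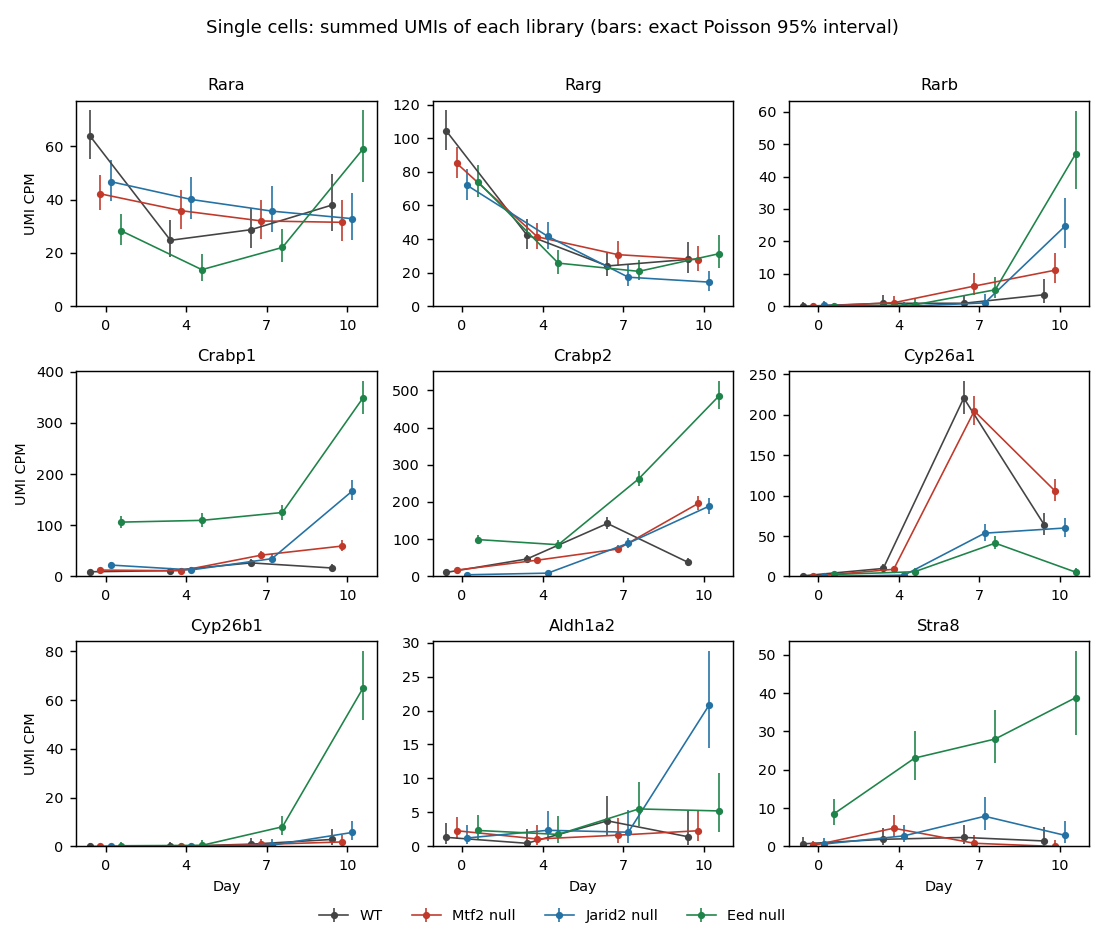
All 9 members in single-cell EBs, as UMI CPM summed over the cells of each library with 95% Poisson intervals, against day (0, 4, 7, and 10), 1 library per point. Eed null cells lead in Crabp1 and Crabp2 with 349 and 486 UMI CPM on day 10, and WT and Mtf2 null cells lead in Cyp26a1 with 221 and 205 UMI CPM on day 7.

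The deposited cell table sorts cells into 22 clusters, which show where these UMIs lay. The clusters were drawn from the same cells, so levels in them are descriptions. Cluster 14, led by Mesp1, Mixl1, Cyp26a1, T, and Lhx1, held 53.4% of all Cyp26a1 UMIs in 190 of 4949 cells, with a UMI in 71.1% of its cells (55.9% after thinning). Its level was 603 UMI CPM. Next came cluster 21 (323 UMI CPM, 47 cells, led by Spink1, Srgn, and Dab2), then cluster 20 (321 UMI CPM, 49 cells, where T and Fgf8 are high). Within cluster 14 the level was 601 (547 to 660) UMI CPM in WT, 621 (558 to 689) in Mtf2 null, and 542 (431 to 673) in Jarid2 null cells, all overlapping, while the cluster made up 28.8% of WT cells on day 7, 15.7% of cells without Mtf2, 3.97% of those without Jarid2, and 0.313% of those without Eed. The cluster was drawn with Cyp26a1 among its genes, so these shares and the Cyp26a1 totals are not independent. In the WT cells of cluster 4, led by Acta2, Col1a1, and Rgs5 and taken at first as cells that lack the gene, 20.5% still had a Cyp26a1 UMI, so they gave no background for it.

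Stra8 was highest in cluster 10, which consisted of 244 Eed null cells and no others and was led by Sohlh2, Dazl, and Rhox13, genes of germ cells. It held 46.7% of Stra8 UMIs (55.2 UMI CPM), and 24.2% of its cells had one (13.3% after thinning). None was seen in 122 WT cells of cluster 4, where a floor of 3 cells would be 2.46%, which is not an interval limit. Cluster 10 made up 7.35%, 25.9%, 39.5%, and 4.95% of Eed null cells on days 0, 4, 7, and 10, while their Stra8 level was highest on day 10. Cluster 9 followed at 20.1 UMI CPM.

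Cyp26b1 and Rarb were highest in cluster 13, led by Igfbp5, Dlk1, and Ptn. Its summed markers were at 992 UMI CPM for lateral and cardiac mesoderm and at 1360 UMI CPM for fibroblasts (Col1a1, Col1a2, Postn, Thy1, and Lum). Of its 226 cells, 197 were Eed null, and the cluster made up 81.7% of Eed null cells on day 10. It held 62.6% of Cyp26b1 UMIs at 54.1 UMI CPM and 45.1% of Rarb UMIs at 51.5 UMI CPM. Neither gene had a UMI in the 311 WT cells of cluster 3, where a floor of 3 cells would be 0.965%, which is not an interval limit. The 25 Jarid2 null cells of cluster 13 held 12 Rarb UMIs and 0 Cyp26b1 UMIs.

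Crabp2 was highest in cluster 15, at 805 UMI CPM, led by Six3, Nr2f1, and Fezf2 with summed neural ectoderm markers at 1041 UMI CPM, with cluster 13 next (493 UMI CPM) and then cluster 16 (338 UMI CPM). Crabp1 followed in another order, with 371 UMI CPM for cluster 13, then 289 for cluster 15 and 141 for cluster 16, against a UMI in 7.07% of the WT cells of cluster 3. Within cluster 15, Crabp1 was at 632 (538 to 737) UMI CPM in 46 Jarid2 null and 166 (132 to 206) UMI CPM in 71 Mtf2 null cells, and Crabp2 at 1036 (915 to 1169) and 646 (577 to 721) UMI CPM. Cluster 15 made up 0.935% of WT, 18.7% of Mtf2 null, 12.1% of Jarid2 null, and no Eed null cells on day 10. Rarg and Rara had their lowest levels in cluster 18, at 3.46 and 5.77 UMI CPM, and their highest in cluster 3, at 106 and 63.9 UMI CPM, where 311 of 335 cells were WT and 329 were from day 0. Aldh1a2 was low throughout, at most 15.2 UMI CPM in cluster 16 from 17 UMIs.

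**Figure D5:**
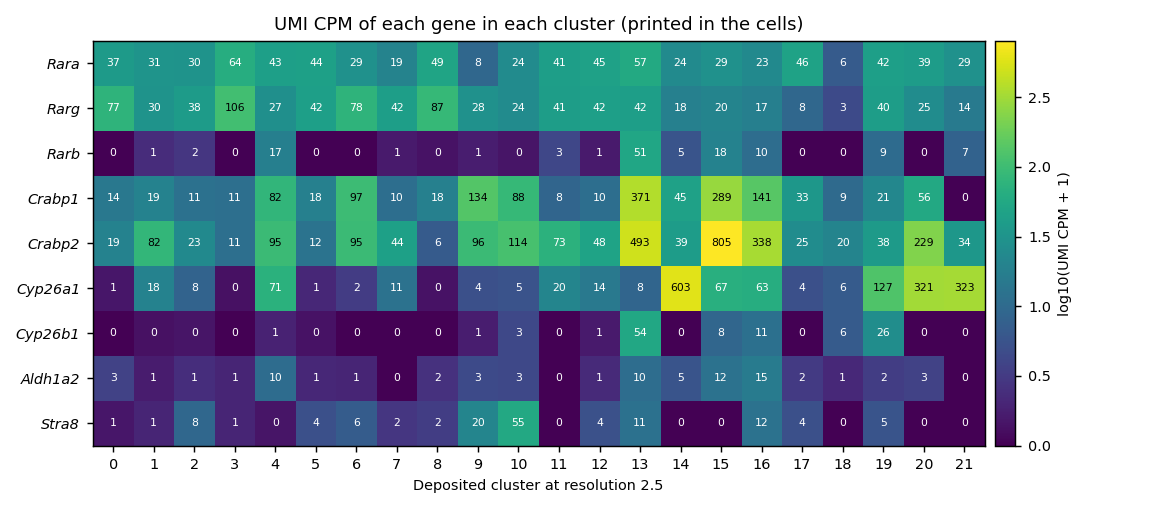
Members by cluster in the single cells, with colour as log10 of UMI CPM plus 1 and UMI CPM printed in each field. Cyp26a1 peaks in cluster 14 (603), Crabp2 in cluster 15 (805), Crabp1 in cluster 13 (371), and Stra8 in cluster 10 (55.2).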

How the data were processed

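The authors aligned reads to the mouse genome GRCm38 (mm10), and the submitters' processing notes name CASAVA, Bowtie2, Salmon, HTSeq, and DESeq2. Mesoderm and endoderm values are estimated counts that the authors deposited, and they were rounded to whole numbers here. Bulk EB values are a signal deposited by the authors as counts divided by size factors, and whole reads were recovered in 45 of 46 columns (100% of values whole within 0.02). Single-cell values are UMI counts deposited by the authors, whose clusters (Seurat, resolution 2.5) were used as given. Cells were sorted alive 1 to a well, no doublet caller was run, and levels without the top cell were computed.

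In R 4.3.3, edgeR 4.0.16 (quasi-likelihood test after TMM scaling) took all groups of a directed series into 1 fit, with calls at an adjusted p under 0.001 and over 2-fold. EBs were tested on log2 CPM with limma 3.58.1, with day as a block, genes at 1 CPM in at least 4 samples, and calls at an adjusted p under 0.05. Column repeats of an EB sample were averaged. DESeq2 1.42.0, other scalings and filters, and leaving out each library were tried as alternatives. On simulated data from the mesoderm libraries (17218 genes), edgeR recovered 66 of 100 genes changed by 1.5 and 80 of 100 changed by 2.5 on the log2 scale, with 0 false calls. On simulated EBs (15850 genes), limma recovered 200 of 200 genes changed by 3.0 on the log2 scale, with 16 false calls. The member calls in EBs were changes of 0.59 to 2.23 on that scale, a size that this simulation did not cover. Named genes were the members and, for each list, up to 4 called genes with the largest change. Members and lists were chosen with earlier results of these data known. Some genes of the lists are not reported here by name.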

Additional observations from a re-analysis of the deposited data

Results flagged for a closer look

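Crabp1 in the second endoderm WT UD library, at 7.68 CPM, stood apart from the other 3 WT UD libraries (9.95 to 10.3 CPM). Crabp2 in the same library, at 0.75 CPM, stood apart from the others (1.18 to 1.23 CPM). Of 27 groups of 4 UD libraries examined, 2 were set apart in this way, where chance sets apart about 1 in 20. The Mtf2 null effect on Rarg differed between UD cells and 48 h of endoderm by -1.03 on the log2 scale (edgeR, adjusted p = 2.03e-04).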

How the results depend on the processing

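No member result changed direction past its threshold under the alternatives run. With an adjusted p under 0.05 and no fold limit, the counts of members called became 10 for Mtf2 null against WT in endoderm (3 before) and 10 in mesoderm (2 before), 2 for Jarid2 null in mesoderm (0 before), 4 in UD cells (1 before), 24 between mutants (5 before), 28 from UD to 48 h (13 before), 7 for interactions (1 before), and 3 between series (0 before). With no filter they were 5 for Mtf2 null in mesoderm, 9 between mutants, 2 in UD cells, and 3 for interactions. DESeq2 gave 2 interactions, and fitting only the groups compared gave 0 interactions and 7 changes from UD to 48 h. In EBs, 1, 2, and 3 members were called in the lines labelled Mtf2 null, Jarid2 null, and Eed null, and 0 in each with no filter or no day block. With all 24 samples in 1 fit the first became 2 and the second 0, and the second was also 0 with the first column of each sample. edgeR on the recovered reads, chosen after seeing the data, called 1037, 2006, and 957 genes for the lines labelled Mtf2 null, Jarid2 null, and Eed null, with 1, 2, and 3 members, but in the last Stra8 was lost (adjusted p = 0.053) and Cyp26b1 gained (adjusted p = 0.041). The causes were not tested. Leaving out 1 library gave 2 to 4 calls for Mtf2 null in endoderm, 1 to 2 in mesoderm, 0 to 1 interactions, 3 to 6 between mutants, 1 in UD cells, and 11 to 14 from UD to 48 h, and leaving out 1 day gave 0 to 1, 0 to 1, and 0 in the 3 EB lines. Of 31 member calls, 11 held in all alternatives.

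Replicate numbers did not pair the libraries: deviations of same-numbered libraries correlated at -0.183 to 0.267 in mesoderm and -0.157 to 0.201 in endoderm over 66 pairs of groups each. With the replicate number as a block, 12 changes from UD to 48 h were called, the rise of Crabp1 in Mtf2 null mesoderm being lost, and the other counts were 3 and 2 for Mtf2 null against WT, 1 in UD cells, 5 between mutants, and 1 interaction. Cyp26a1, Rarb, and Cyp26b1 were limited by depth, with under 1 CPM in most WT libraries.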
